A study of Mus musculus with 6 samples.

Results

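In cultured mouse cortical neurons, 11 array probes for 10 genes gave a signal above background on all 3 arrays of control neurons and on none of the 3 arrays of neurons given a lentivirus that lowers miR-27b. The 10 genes were Rasgrp1, Iqgap2, Grasp, Mapt, Mlec, Gpr37l1, H2-Ab1, Apoc1, Glycam1 and Fam122b, and Mlec was read by 2 of the 11 probes. They were taken from 35784 probes with a gene symbol, for 21946 genes, among the 45281 probes of the array. Members were chosen by the detection p-value, the share of negative control beads at least as bright as the probe. The detection p was under 0.01 on all 3 control arrays and 0.05 or more on all 3 knockdown arrays. The contrast between the groups therefore chose the members, and their differences are given as a description with no test.

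The samples were total RNA from dissociated cortical neurons of strain C57BL/6J and genotype Dicerflox/flox, which both groups share, at 14 days in culture. Neurons received either a control lentivirus or a lentivirus to knock down miR-27b, at a multiplicity of infection of 5, and there was 1 array for each treatment and each of 3 neuronal preparations. The labels name no agent that would delete Dicer. The level of miR-27b was not measured on this array, so the size of the knockdown is not known here.

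MicroRNAs pair with messenger RNAs mainly through a short seed near their 5′ end and lower the stability or translation of those messengers. Primary cortical cultures hold excitatory and inhibitory neurons together with some glia, and each array reads the RNA of all the cells in a well. The array cannot tell fewer cells of a type from less RNA per cell. The targeted microRNA is shown here with its other arm and with the one other mouse microRNA that shares its seed, from RefSeq on build GRCm38.p6, written 5′ to 3′ with the seed, bases 2 to 8, in capitals. Of 1679 mature mouse microRNAs in that table, 2 hold the seed of miR-27b-3p.
mmu-miR-27b-3p, chr13:63300760-63300780, plus strand: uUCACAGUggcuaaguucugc
mmu-miR-27b-5p, chr13:63300718-63300739, plus strand: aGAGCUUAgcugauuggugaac
mmu-miR-27a-3p, chr8:84208727-84208747, plus strand: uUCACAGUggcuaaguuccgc

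All the member probes lay close to the limit of detection. Between 17498 and 19163 probes were detected per array at p under 0.05, and mean intensity ran from 669 to 788. The dimmest detected probe had an intensity of 126 to 128 on the control arrays. It had 125, 129 and 145 on knockdown arrays 1, 2 and 3, so knockdown array 3 needed a brighter signal than the other arrays. Knockdown array 3 also had the fewest detected probes and the lowest mean intensity. Member intensities were 164 to 316 on control arrays and 88.7 to 144 on knockdown arrays. The control means of the members, after background correction, stood between the percentiles 20.3 and 37.2 of the 18627 probes detected on at least 3 arrays, which are the probes fitted below.

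**Figure D1:**
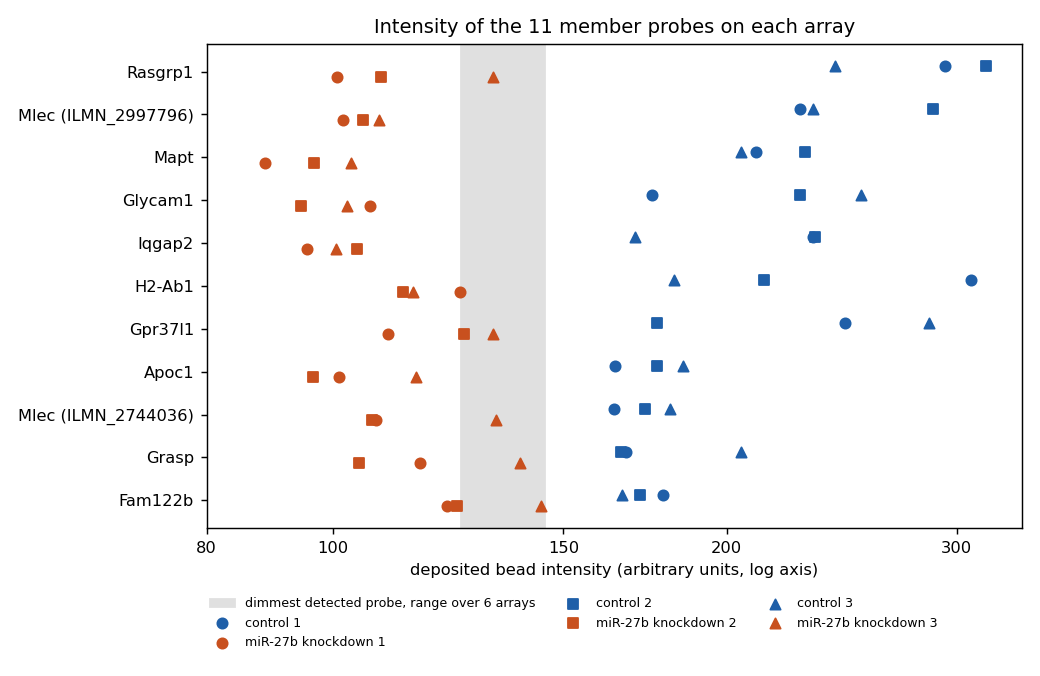
Deposited bead intensity (arbitrary units, log axis) of each member probe on the 3 control arrays (blue) and the 3 miR-27b knockdown arrays (orange), with marker shape giving the preparation and the grey band the range of the dimmest detected probe over the 6 arrays. For each of the 11 probes all control points, at 164 to 316, lie to the right of all knockdown points, at 88.7 to 144.

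Intensities are as deposited, in arbitrary units. Differences are knockdown minus control means on the log2 scale after background correction and quantile normalisation, each with the standard error of a linear model with moderated variance (limma) over all 6 arrays. Since no member was detected after knockdown, its fold is a lower bound. The bound sets the control mean against the mean over knockdown arrays of the probe's own value or the dimmest detected probe, whichever was higher. Unless stated otherwise, each bound is on the background-corrected scale. It is smaller without that correction and is no floor on the ratio of deposited intensities. An array reports a probe and not a gene, and 7 of the 10 genes had further probes, 15 in all, so each gene is given with every probe it has.

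Rasgrp1 encodes a nucleotide exchange factor that activates Ras in response to diacylglycerol and calcium. Its member probe (ILMN_1214318) had intensities of 294, 316 and 242 on control arrays 1, 2 and 3 and of 101, 109 and 132 on knockdown arrays 1, 2 and 3. All 3 control values were far above the highest knockdown value, which came from array 3. The control mean was 284 ± 37.8 and the knockdown mean 114 ± 16.5 (SD, n = 3 each), a log2 difference of -2.31 ± 0.17 (SE) and a control level at least 3.72-fold higher on the background-corrected scale, the highest bound of the 11, or at least 2.18-fold without that correction. The ratio of the deposited means was 2.49. Rasgrp1 messenger did not vanish from the knockdown neurons, since a second probe (ILMN_1246609) was detected on all 6 arrays. That probe read 5887, 5992 and 3784 in control neurons and 1131, 1224 and 766 in knockdown neurons. Its groups did not overlap, and its log2 difference was -2.38 ± 0.20 (SE), with -2.39, -2.36 and -2.38 in preparations 1, 2 and 3. The last Rasgrp1 probe (ILMN_1246905) was undetected on all arrays, with mean intensities of 94.6 ± 4.08 and 84.1 ± 9.27 (SD, n = 3 each).

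Iqgap2 encodes a scaffold that binds Cdc42, Rac1 and calmodulin at the actin cytoskeleton. Its member probe (ILMN_1218051) read 233, 234 and 170.2 on the control arrays and 95.4, 104 and 100.5 on the knockdown arrays. Control array 3 was the lowest of the control arrays, and the groups did not overlap. The means were 212 ± 36.5 and 100.1 ± 4.47 (SD, n = 3 each), the log2 difference -1.94 ± 0.18 (SE) and the bound at least 2.40-fold. A further probe (ILMN_2908846) read 353, 431 and 365 against 127, 107 and 118, and missed the rule only because its detection p on knockdown array 1 was 0.0470. It had groups that did not overlap and a log2 difference of -2.80 ± 0.15 (SE). The last Iqgap2 probe (ILMN_2427307) was undetected on all 6 arrays, with means of 89.1 ± 4.25 and 87.1 ± 5.30 (SD, n = 3 each).

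Grasp, also called tamalin, is a postsynaptic scaffold that links group I metabotropic glutamate receptors to cytohesins. Its member probe (ILMN_1237719) read 168, 166 and 205 on the control arrays and 117, 105 and 139 on the knockdown arrays. Array 3 was the highest within each group, and the groups did not overlap. The means were 179 ± 22.1 and 120.1 ± 17.4 (SD, n = 3 each), the log2 difference -1.18 ± 0.22 (SE) and the bound at least 1.87-fold. Grasp messenger was still detected after knockdown by another probe (ILMN_2596396), which read 1799, 2169 and 1846 against 774, 922 and 734. All 3 of its control values were above its knockdown values, with a log2 difference of -1.33 ± 0.11 (SE). The remaining probe (ILMN_2656031) read 184, 277 and 220.2 against 192, 146 and 142, so its groups overlapped. Its preparations did not move together, with log2 differences of 0.081, -1.53 and -1.36 in preparations 1, 2 and 3.

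Mapt encodes the microtubule-binding protein tau, and its probes moved in opposite directions. The member probe (ILMN_3034121) read 210.4, 229.6 and 205 on the control arrays and 88.7, 96.6 and 103 on the knockdown arrays. The groups were far apart relative to their spread, with means of 215 ± 12.9 and 96.1 ± 7.24 (SD, n = 3 each). The log2 difference was -2.08 ± 0.093 (SE), and the bound at least 2.51-fold. A like probe (ILMN_1254952) read 261, 289.5 and 226 against 129, 102 and 117, missed the rule on knockdown array 1 with a detection p of 0.0427, and had a log2 difference of -2.07 ± 0.18 (SE).

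The other 3 Mapt probes were detected on all 6 arrays and were higher after knockdown. One (ILMN_2740020) read 11244, 12003 and 10611 in control neurons and 21202, 21039.5 and 17518 in knockdown neurons. Every knockdown value of it was above every control value, and its log2 difference was 0.91 ± 0.082 (SE). The next (ILMN_1257750) read 4744, 4986 and 3953 against 6793, 6421 and 4706, and its groups overlapped, since knockdown array 3 lay below control arrays 1 and 2. Its log2 difference was 0.45 ± 0.11 (SE). The last (ILMN_3107817) read 491, 612 and 481 against 688, 813 and 744, with no overlap and a log2 difference of 0.58 ± 0.13 (SE). When arrays were scaled to a common median instead, the last 2 differences were 0.31 and 0.51 and no longer passed the threshold of the fit, while that of the first probe was 0.75 and did. In the probe annotation the member probe, ILMN_1254952 and ILMN_3107817 share 1 transcript record, so probes of both directions carry the same record. Where the probes lie within the transcript was not analysed here.

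**Figure D2:**
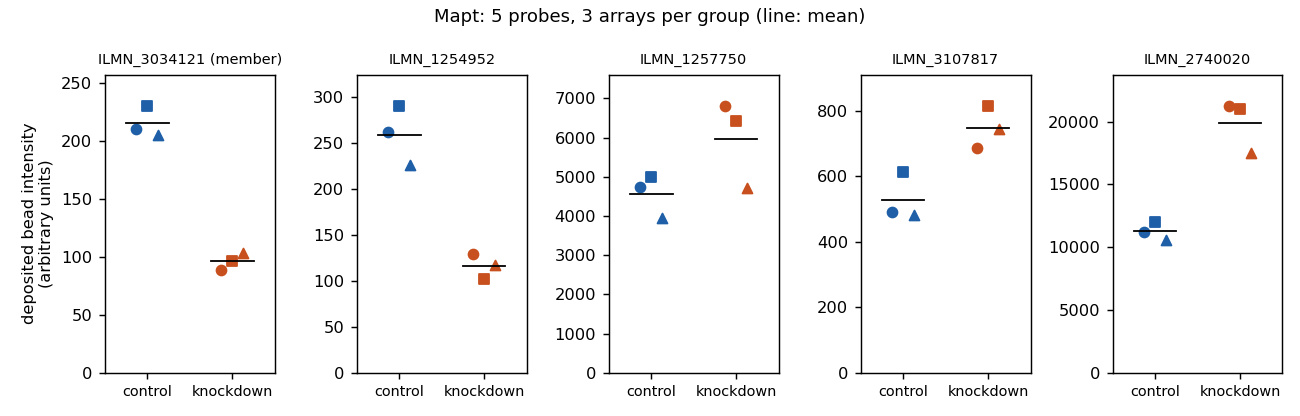
Deposited intensity (arbitrary units, each panel with its own axis from 0) of the 5 Mapt probes on 3 control and 3 miR-27b knockdown arrays, with circles, squares and triangles for preparations 1, 2 and 3 and a line at each group mean. The 2 probes on the left were lower after knockdown, with means of 215 and 259 in control neurons and 96.1 and 116 in knockdown neurons, and the 3 probes on the right were higher.

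Mlec encodes malectin, a lectin of the endoplasmic reticulum that binds glucosylated N-glycans on newly made glycoproteins, and it was the only gene with 2 member probes. The first (ILMN_2997796) read 228, 287 and 233 on the control arrays and 102, 105 and 108 on the knockdown arrays. The knockdown values were close together and all below the control values. The means were 249.3 ± 33.2 and 105 ± 3.30 (SD, n = 3 each), with a log2 difference of -2.22 ± 0.13 (SE) and a bound of at least 3.10-fold. The second (ILMN_2744036) read 164, 173 and 181 against 108, 107 and 133, a narrower gap with no overlap. Its means were 173 ± 8.45 and 116 ± 14.8 (SD, n = 3 each), its log2 difference -1.19 ± 0.15 (SE) and its bound at least 1.77-fold. Both other Mlec probes were detected on all 6 arrays at p under 0.05, so Mlec messenger was above background after knockdown. One (ILMN_1222602) read 558, 559.9 and 633 against 168, 226 and 149.98, with a log2 difference of -2.39 ± 0.27 (SE). The other (ILMN_2596230) read 581, 550.0 and 574 against 167, 205 and 173, with a log2 difference of -2.28 ± 0.15 (SE).

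The next 4 genes encode proteins of the cell surface or of lipoproteins and secretions. Gpr37l1 encodes an orphan G-protein-coupled receptor expressed mainly in astrocytes, and it has 1 probe on the array. That probe (ILMN_2620545) read 246, 177 and 286 on the control arrays and 110.2, 126 and 133 on the knockdown arrays. Control array 2 was the lowest control value and still lay above all knockdown values. The means were 236 ± 55.0 and 122.9 ± 11.5 (SD, n = 3 each), the log2 difference was -1.70 ± 0.28 (SE) and the bound at least 2.79-fold. The preparations differed from each other, with -2.01, -0.98 and -2.12 in preparations 1, 2 and 3.

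H2-Ab1 encodes the beta chain of a class II major histocompatibility molecule, which presents peptides on antigen-presenting cells such as microglia. Its member probe (ILMN_1226525) read 308, 213 and 182 on the control arrays and 125, 113 and 115 on the knockdown arrays. The control values were spread widely, from 182 on array 3 to 308 on array 1, and the detection p on knockdown array 1 was 0.0502, just inside the limit. The means were 234 ± 65.3 and 118 ± 6.44 (SD, n = 3 each), the log2 difference -1.78 ± 0.26 (SE) and the bound at least 2.73-fold. A further probe (ILMN_2913716) read 193, 178 and 116 against 119, 166 and 103, with overlapping groups and a log2 difference of -0.65 ± 0.45 (SE). It was detected on 2 control arrays and 1 knockdown array. The last probe (ILMN_2631423) read 140.5, 132 and 111 against 117, 100.3 and 103, overlapped between the groups and was detected on 2 control arrays and no knockdown array.

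Apoc1 encodes a small apolipoprotein that slows the uptake of lipoproteins. Its member probe (ILMN_2599794) read 164, 177 and 185 on the control arrays and 101, 96.5 and 116 on the knockdown arrays. The groups did not overlap, and the spread within each was small, with means of 175 ± 10.5 and 104 ± 10.03 (SD, n = 3 each). The log2 difference was -1.47 ± 0.13 (SE) and the bound at least 1.82-fold. The other Apoc1 probe (ILMN_1228469) read 109, 111 and 128 against 78.9, 76.2 and 89.7 and was detected on 1 control array alone.

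Glycam1 encodes a secreted mucin that carries the sugars bound by L-selectin in lymph node vessels and is also a protein of milk. Its probe, the only one of this gene (ILMN_2640849), read 175, 228 and 253 on the control arrays and 107, 94.4 and 103 on the knockdown arrays. Control array 1 was the lowest control value, and no values overlapped. The means were 219 ± 39.8 and 101 ± 6.21 (SD, n = 3 each), the log2 difference was -1.99 ± 0.24 (SE) and the bound at least 2.52-fold. Preparation 1 had the smallest difference, -1.32, beside -2.17 and -2.47 in preparations 2 and 3.

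Fam122b is a relative of Fam122a, whose product inhibits a serine/threonine phosphatase, and has 1 probe. That probe (ILMN_1246764) read 179, 172 and 166 on the control arrays and 122, 124 and 144 on the knockdown arrays. It had the smallest gap of the 11, with knockdown array 3 at 144 against a dimmest detected probe of 145 on that array. The means were 172 ± 6.37 and 130.3 ± 12.1 (SD, n = 3 each), and the log2 difference was -0.87 ± 0.11 (SE). The bound was at least 1.76-fold on the background-corrected scale and 1.34-fold without that correction, and the ratio of the deposited means was 1.32.

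Over the 11 member probes the median log2 difference was -1.78, from -2.31 to -0.87, beside a median of -0.0074 and quartiles of -0.26 and 0.25 over the 18627 fitted probes. The differences ranked between 10 (Rasgrp1) and 703 (Fam122b) from the lowest of all fitted probes, so larger falls were present among probes that the rule did not take. All control intensities lay above all knockdown intensities in 11 of 11 members, a state that held for 19.8% of all fitted probes. The limma fit called 11 of 11 members lower at an adjusted p under 0.05, where 13.6% of all fitted probes were called lower and 13.9% higher, or 2526 and 2581 probes (2022 and 1295 when arrays were scaled to a common median). Since the rule used this contrast, nothing is read from either count. The lower bounds had a median of 2.51, from 1.76 to 3.72. Without background correction the bounds had a median of 1.66 and ran from 1.34 to 2.18, and the median difference was -1.003, so the sizes of these dim probes depend on that step. Their direction was fixed by the rule.

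**Figure D3:**
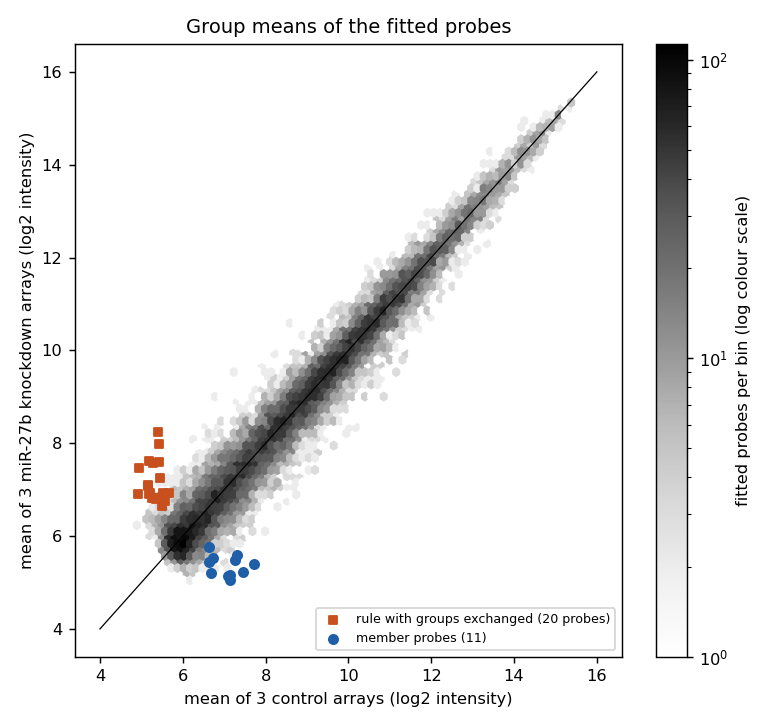
Mean log2 intensity (after background correction and quantile normalisation) over 3 control arrays (horizontal) and 3 knockdown arrays (vertical) for the 18627 fitted probes as grey density, the 11 member probes in blue and the 20 probes that meet the rule with the groups exchanged in orange, with the line of equal means. Both sets lie at the dim end, the members below the line with a median difference of -1.78 and the exchanged set above it with 1.76.

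By preparation, the median member difference was -2.01, -1.68 and -1.59 in preparations 1, 2 and 3, beside medians over all fitted probes of -0.0039, 0.0046 and -0.013. The rule asks for the contrast on every array, so it fixes a lower value in each preparation. Among control arrays, 2, 4 and 5 of the 11 probes were brightest on arrays 1, 2 and 3. Among knockdown arrays, 8 of 11 were brightest on array 3, the array whose dimmest detected probe was also the brightest, and its part in the choice of members was not tested. Without knockdown array 1, 2 or 3 the rule took 30, 20 and 13 probes, and without control array 1, 2 or 3 it took 15, 18 and 26.

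The name "detected only in control neurons" held for the probes but not for all of the genes. Of the 10 genes, 6 had another probe detected at p under 0.05 on at least 1 knockdown array, namely Rasgrp1, Mapt, Mlec, Grasp, Iqgap2 and H2-Ab1. For 3 of them, Rasgrp1, Mapt and Grasp, another probe was detected on all 6 arrays at p under 0.01, and for 4, with Mlec, at p under 0.05. Iqgap2 and H2-Ab1 are counted through 1 knockdown array each, with a detection p of 0.0470 and 0.00855. The 4 genes with no probe detected on any knockdown array were Glycam1, Gpr37l1, Apoc1 and Fam122b, and 3 of these have 1 probe. Of the 15 other probes, 12 had a lower mean after knockdown, and the 3 with a higher mean were those of Mapt. In the limma fit 11 of the 15 were included, of which 6 were called lower and 3 higher, or 7 lower and 1 higher when arrays were scaled to a common median. These probes read the same genes and contrast as the members, so nothing is read from the counts beside the 13.6% and 13.9% over all fitted probes.

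**Figure D4:**
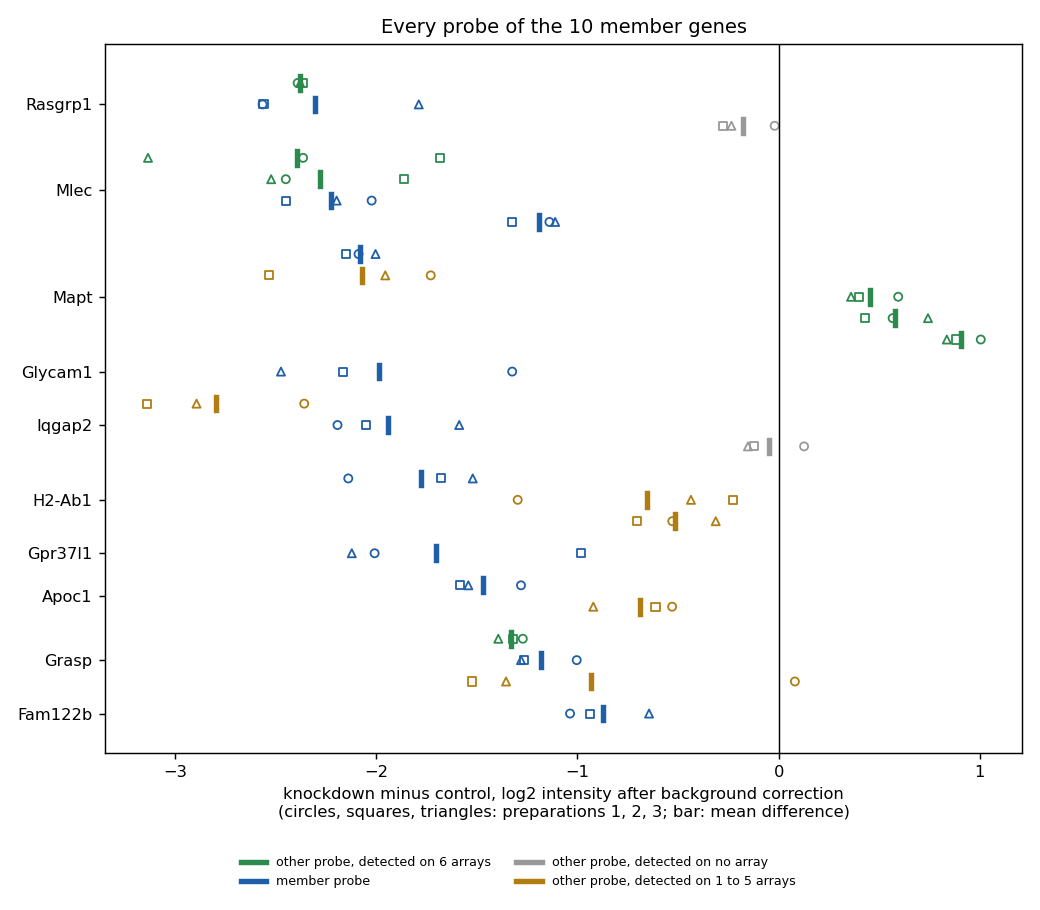
Log2 difference between knockdown and control (horizontal axis) for every probe of the 10 genes, with 1 point for each preparation and a bar at the mean, coloured by whether the probe is a member or by how many arrays detected it. All 11 member bars lie between -2.31 and -0.87, the other Rasgrp1, Mlec and Grasp probes detected on all 6 arrays lie at -2.39 to -1.33, and the 3 bars above 0 are Mapt probes at 0.45, 0.58 and 0.91.

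Members near the limits were much like probes just outside them. The members nearest to the control limit were Fam122b and Grasp, each with a highest control detection p of 0.00855. The second Mlec probe and Apoc1 came next, with 0.00641 each. Just outside it, missing on 1 array, were Arhgef19 and Gab3 with 0.0107 each and Aldh3b1 and Arsj with 0.0118 each. Their log2 differences were -1.44, -1.28, -0.95 and -1.58. At the knockdown limit the nearest members were H2-Ab1 with a lowest detection p of 0.0502, Fam122b with 0.0513 and Gpr37l1 with 0.0577. Just outside it were Vegfc with 0.0481, the Iqgap2 probe with 0.0470, and Col6a1 and another Gab3 probe with 0.0438 each. Their log2 differences were -1.25, -2.80, -1.47 and -1.30. In all 56 probes of 55 genes missed the rule on a single array, 26 on a control array and 30 on a knockdown array. Of the 30, 19 missed on knockdown array 1, 9 on array 2 and 2 on array 3. Of the 26, 15 missed on control array 3. With the control limit raised to 0.05 the rule took 122 probes, and with the knockdown limit lowered to 0.01 it took 115.

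The same rule with the groups exchanged took 20 probes of 19 genes, with a median log2 difference of 1.76, from 1.14 to 2.84. Its leading genes were Spink2, a protease inhibitor, the neuropeptide Gal, the nicotinic receptor subunit Chrna3, the macrophage marker Adgre1 and the retinol-oxidising enzyme Adh7. Loss of detection was thus not the more frequent of the 2 outcomes at these limits.

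Markers of neurons and of other cells were set beside the members. Gpr37l1 is the only member on these cell-type lists. Counts of calls in the lists stand beside the 13.6% lower and 13.9% higher over all fitted probes, and genes that no array of one group detected were left out of them, since these were fitted through the other group alone. Genes that only some arrays of a group detected were kept. Npas4, Pvalb and Htr3a, each detected on 3 control and 2 knockdown arrays, count as lower, and Unc13c, detected on 1 and 3, as higher. Summed levels are sums of background-corrected, normalised values. Of 14 excitatory neuron markers on the array 13 were fitted, of which 4 were lower, 2 were higher and 7 did not pass. Their summed level was 27243 to 29358 on control arrays and 25987 to 27167 on knockdown arrays. The 17 inhibitory neuron markers fitted had a median log2 difference of -0.97, with sums of 82261 to 87625 and 47205 to 52262. Sums for 4 oligodendrocyte lineage genes, none of which passed, were 8291 to 11142 and 4815 to 7731. Those of 9 progenitor genes (1 lower) were 2121 to 3067 and 2096 to 3163. For 7 vascular and fibroblast genes, none of which passed, sums were 1333 to 2384 and 1505 to 2144. Gpr37l1 is on the astrocyte list used here. Of 15 other astrocyte genes fitted, without Gjb6, which no knockdown array detected, 6 were lower at an adjusted p under 0.05, none was higher and 9 did not pass, with a median log2 difference of -0.72. At an unadjusted limma p under 0.05, 8 were lower and 0 higher. Gfap, the astrocyte intermediate filament, had -1.83 (limma adjusted p = 0.00644), the water channel Aqp4 -1.29 (0.00288) and the glutamate transporter Slc1a2 -1.07 (0.00110). The glutamate transporter Slc1a3 (-0.13, 0.557) and the gap junction protein Gja1 (-0.44, 0.0995) did not pass. The summed level of the 15 genes was 27827 to 38582 on control arrays and 20653 to 26041.5 on knockdown arrays, while S100b and F3 were undetected on at least 4 of the 6 arrays. The part of astrocytes in the Gpr37l1 values was not tested.

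Apoe, an apolipoprotein made mainly by astrocytes in brain and encoded next to Apoc1, differed by -0.81 ± 0.23 (SE, limma adjusted p = 0.0397). Apoc2 of the same cluster did not pass, with 0.20 (limma adjusted p = 0.517), and Apoc3 and Apoc4 were not detected often enough to be fitted. For H2-Ab1, none of its partner chain H2-Aa, the related chain H2-Eb1, the invariant chain Cd74 and the class II transactivator Ciita was detected on as many as 3 arrays. The peptide loader H2-DMa was fitted and did not pass, with -0.25 (limma adjusted p = 0.0860). Of 15 microglia markers on the array, 12 were not detected on 3 arrays, among them the defining genes Cx3cr1, Tmem119, P2ry12, Csf1r and Tyrobp. Of the 3 that were fitted, Cd68 had -1.01 (limma adjusted p = 0.00495) and Aif1 0.43 (0.0853). Cd68 was detected on 3 control and 2 knockdown arrays and Aif1 on 2 and 3, so both lay near the limit of detection. Their summed level was 134 to 183 on control arrays and 122 to 135 on knockdown arrays. The other one, Adgre1, was detected on no control array and is in the set of the exchanged rule, so its value is given without a test. Its probe with the larger difference (ILMN_1216880) read 91.4, 91.0 and 115 on control arrays and 242, 319 and 275 on knockdown arrays. The part of microglia in the H2-Ab1 values was not tested.

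Rasgrp1 is on a list of genes induced by neuronal activity. Of 35 other genes of that list fitted, without Fosb and Atf3, each detected in 1 group alone, 17 were lower at an adjusted p under 0.05, 3 were higher and 15 did not pass, with a median of -0.64. Summed levels of those 35 genes were 85897 to 108820 on control arrays and 70206.5 to 73768.5 on knockdown arrays. Of 17 inhibitory neuron markers fitted 12 were lower and 1 was higher, and of 82 synaptic genes, without Grin2c, 28 were lower and 5 higher. No member is on the lists of excitatory or inhibitory neuron, synaptic, progenitor, oligodendrocyte lineage, vascular and fibroblast, or neuronal transcription factor genes, or of reported miR-27 targets.

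Relatives and partners of the members were chosen after the members were known. Of 15 that were fitted, 2 were lower (4 with preparation as a block), 2 were higher and 11 did not pass, shares near the 13.6% lower and 13.9% higher over all fitted probes. Among Rasgrp1 relatives, Rasgrp4 was lower by -0.87 ± 0.11 (SE, limma adjusted p = 0.00256) and Rasgrp2 was higher by 0.73 ± 0.11 (SE, limma adjusted p = 0.00528), while Rasgrp3 was not fitted. Iqgap1, the broadly expressed relative of Iqgap2, had -0.028 (limma adjusted p = 0.882). The Grasp partners Grm5, a glutamate receptor, and Cyth2, a cytohesin, did not pass, with -0.20 (limma adjusted p = 0.236) and 0.33 (0.192). Among microtubule-associated proteins beside Mapt, Map1b was higher by 0.66 ± 0.16 (SE, limma adjusted p = 0.0252, but 0.130 with median scaling), and Map2 had 0.11 (0.377). Of the glycan-processing partners of Mlec, the glucosidase genes Ganab, Prkcsh and Mogs did not pass, with -0.19, 0.079 and 0.13 and adjusted p of 0.145 or more. Rpn1, a subunit of the oligosaccharyltransferase that binds malectin, had -0.53 (limma adjusted p = 0.367) and the chaperone Calr -0.36 (0.222). With preparation as a block, which pairs the arrays, both passed, with adjusted p of 0.0260 and 0.0437. The Rpn1 probe lay near the limit of detection and was detected on 2 knockdown arrays. It read 174, 233 and 132 on control arrays and 135, 183 and 128 on knockdown arrays.

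The stretches before the annotated starts of member genes are given because every member is defined by its messenger RNA level. Of the 10 genes 7 had a promoter window in the RefSeq table for GRCm38.p6 (all but Mapt, H2-Ab1 and Apoc1), of 250 bases before to 50 after the start. For Iqgap2 and Fam122b the start of the window lies inside the gene's annotated span, so it is not the outermost start, and neither is shown. Shown 5′ to 3′ on the gene's strand are the 250 bases before the start for 3 genes with another probe that was detected on all 6 arrays and lower (Rasgrp1, Mlec, Grasp) and for the 2 cell-surface or secreted genes with 1 probe (Gpr37l1, Glycam1). Capitals mark matches to the motifs named after the sequences.
Rasgrp1, chr2:117342878-117343127, minus strand: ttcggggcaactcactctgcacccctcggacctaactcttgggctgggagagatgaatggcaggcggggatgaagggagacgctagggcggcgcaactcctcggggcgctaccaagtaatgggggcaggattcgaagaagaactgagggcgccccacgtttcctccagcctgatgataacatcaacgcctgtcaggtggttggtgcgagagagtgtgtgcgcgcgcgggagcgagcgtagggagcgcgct
Mlec, chr5:115158177-115158426, minus strand: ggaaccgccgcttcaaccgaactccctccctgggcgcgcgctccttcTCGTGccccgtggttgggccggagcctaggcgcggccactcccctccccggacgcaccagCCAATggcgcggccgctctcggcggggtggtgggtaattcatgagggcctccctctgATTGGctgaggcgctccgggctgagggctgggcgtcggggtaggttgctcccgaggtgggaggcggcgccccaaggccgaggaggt
Grasp, chr15:101223957-101224206, plus strand: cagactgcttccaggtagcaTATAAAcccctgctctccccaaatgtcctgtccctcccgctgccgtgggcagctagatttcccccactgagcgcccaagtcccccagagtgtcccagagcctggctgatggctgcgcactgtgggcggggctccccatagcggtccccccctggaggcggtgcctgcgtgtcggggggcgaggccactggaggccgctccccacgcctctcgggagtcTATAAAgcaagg
Gpr37l1, chr1:135167682-135167931, minus strand: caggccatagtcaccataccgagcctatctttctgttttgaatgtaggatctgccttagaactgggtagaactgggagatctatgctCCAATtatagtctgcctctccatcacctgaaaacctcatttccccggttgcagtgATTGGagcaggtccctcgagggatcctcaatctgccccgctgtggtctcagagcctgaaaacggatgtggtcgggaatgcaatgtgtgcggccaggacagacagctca
Glycam1, chr15:103565082-103565331, minus strand: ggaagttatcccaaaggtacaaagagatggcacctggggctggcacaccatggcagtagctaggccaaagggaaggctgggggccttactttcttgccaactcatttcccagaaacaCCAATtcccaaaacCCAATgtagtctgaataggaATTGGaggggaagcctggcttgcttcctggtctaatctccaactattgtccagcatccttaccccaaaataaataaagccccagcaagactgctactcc

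Both strands were searched for 9 motifs, and a match is a run of letters and not a shown site. A gene was counted once if any of its windows matched, with 32851 windows for 27025 genes. Each of the 7 member genes had 1 window, so genes with several windows can raise the shares over all genes. The letters of the cAMP response element, TGACGTCA, were in none of the 7 windows and in 2.03% of 27025 genes, and its shorter form TGACG, which lies within it, in none and 23.0%. The AP-1 motif TGANTCA was in none of 7 and 8.97%, the EGR motif GCGTGGGCG in none and 0.707%, the E-box CACGTG in none and 8.09%, and the REST core TTCAGCACC in none and 0.433%. The TCGTG motif of Npas4-like factors was in 1 of 7, Mlec, and in 18.1% of all genes. TATAAA was in 1 of 7, Grasp, and in 15.7%, and CCAAT in 4 of 7 (Mlec, Glycam1, Gpr37l1 and Fam122b), or 57.1%, and in 41.1%. The windows held 50.3% to 74.3% G and C, beside a median of 52.7% over all windows, with Glycam1 lowest and Iqgap2 highest. With 7 windows 1 gene is 14.3%, so no motif's share can be set apart from that of all genes. The letters shown thus describe the windows only.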

How the data were processed

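Bead intensities and their detection p-values were used as the authors deposited them, not normalised, per the file headers; the scanner software is not given in the sources used here. A second deposited table of intensities differed from the quantile-normalised first table by no more than 7.18e-10 (log2) and was tried as an alternative. The intensity values were corrected for background by normexp from the detection p-values (limma 3.58.1, neqc, offset 16), quantile-normalised and put on the log2 scale in R 4.3.3. Of 45281 probes, 18627 were fitted, those detected at p under 0.05 on 3 or more arrays (2 in fits with 5 arrays), with lmFit and eBayes, knockdown minus control, with Benjamini-Hochberg adjustment over all of them and a threshold of 0.05. The fit was also run on simulated arrays with independent noise, which does not test it for arrays that share a preparation.

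Probe symbols came from the platform annotation; gene IDs matched 28620 probes and transcripts 2637 to a RefSeq table of GRCm38.p6, which updated 937 symbols. In gene lists each gene was represented by its brightest fitted probe. Genes of the lists that no array of one group detected were left out, a choice made after values had been seen. Every member was named. The members and lists were chosen with earlier results of these data known, and the relatives after the members were known. Groups and numbers came from the sample titles. The series describes 3 preparations, and deviations from the group means went together in arrays that share a number (correlations of 0.115, 0.215 and 0.227 over the fitted probes), so the numbers were taken as pairs for the fit with a replicate block. The p-values and standard errors of the main fit rest on the spread of arrays within a group, across preparations, and leave the pairing out. Only the fit with a replicate block uses the pairing, and 3 arrays per group limit the precision of both. Alternatives covered the detection limits, background correction, normalisation, starting table, filter, array weights, block and leaving out each array.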

Additional observations from a re-analysis of the deposited data

How the results depend on the processing

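The number of member probes depended most on the limits. It was 11, and became 122 with a control detection p under 0.05, 0 with one of at most 0.001, 115 with a knockdown detection p of 0.01 or more, 5 with one of 0.1 or more, 13 with probes lacking a symbol, and 13 to 30 when 1 array was left out (26 without control 3, 30 without knockdown 1, 20 without knockdown 2, 18 without control 2). A control p of at most 0.001 needs a p of 0, which control array 3 gave only to probes brighter than 275. The median member difference of -1.78 became -1.003 without background correction and with the deposited value table, which holds the same values, and -1.26 with an offset of 50. It stayed between -1.79 and -1.74 with median scaling or cyclic loess, and ran from -1.88 to -1.65 with 1 array left out. The median bound of 2.51 became 1.66 without background correction and 1.60 with a floor at a detection p of 0.01. The rule fixes the sign of the member differences, so the 121 of 121 below 0 and the 11 of 11 called lower in each of the 14 alternative fits, the replicate block included, say nothing about stability. Over all fitted probes the counts were 2526 lower and 2581 higher, 2598 and 2567 with the replicate block, and 2022 and 1295 with median scaling. With 1 array left out they ran from 1386 to 2063 and from 1465 to 2227, lowest without control 1, and were 1555 and 1644 without control 2 and 1637 and 1592 without knockdown 2. Calls in the lists also moved, members aside and with Fosb, Atf3 and Gjb6 kept. Of 37 activity-induced genes 18 were lower and 4 higher. These were 19 and 6 with the replicate block or without background correction, and 19 and 3 with median scaling. Of 16 astrocyte genes 7 were lower, 8 without background correction and 9 with the replicate block or median scaling, and none was higher. Of 17 inhibitory neuron markers 12 were lower in each of these settings. The signal of every member lay close to background, which limits all sizes given.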
